A study of Mus musculus with 4 samples.

Results

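Dendritic cells (DCs) share the tumor with macrophages, and 10 genes by which DC lineages are told apart were followed here in tumor-associated macrophages (TAMs). The genes were chosen by name, as markers of conventional DCs as a whole (Flt3, Zbtb46 and Kmo), of type 1 conventional DCs (cDC1s; Xcr1, Clec9a, Batf3 and Irf8), of type 2 conventional DCs (cDC2s) or monocyte-derived DCs (Cd209a), and of mature, migrating DCs (Ccr7 and Fscn1). All 10 were found by Entrez identifier among the 16739 genes with a value in any library. The libraries came from CD45+CD11b+F4/80+ cells sorted from subcutaneous B16-F10 melanomas of C57BL/6 mice, 16 days after inoculation at an age of 6 to 8 weeks. The WT group had 2 libraries and the group with genotype label Trim24-/- had 2 libraries, and pairs of values are given with replicate 1 first. In the mutants a floxed Trim24 allele was removed by LysM-Cre, which is driven from the lysozyme M locus and acts in macrophages, monocytes and granulocytes. WT littermates served as controls in the study, but whether the WT mice carried Cre or floxed alleles is not given in the sources used here.

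Conventional DCs arise from bone marrow precursors that depend on the growth factor receptor Flt3, and they carry antigen to T cells. The cDC1 branch needs the transcription factors Irf8 and Batf3 and takes up dead cells for presentation to CD8 T cells, whereas cDC2s and monocyte-derived DCs are closer in surface phenotype to macrophages. Upon maturation, DCs of both branches switch on Ccr7 and Fscn1 and leave for the lymph node. The sort was for the macrophage proteins CD11b and F4/80, which cDC1s largely lack, and Irf8 is also transcribed by macrophages themselves.

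The library totals were 4476122 to 5172407 expected counts (the estimated reads per gene), at which 3 counts amount to 0.606 to 0.639 CPM (counts relative to the TMM-scaled library total). The targeted gene did not separate the groups, with Trim24 at 5.82 and 2.12 CPM in WT and at 3.43 and 0.411 CPM in the others, and the latter are therefore called the Trim24-deficient labelled libraries. Sex-linked transcripts ran along the same split, since Xist was at 10.9 and 6.51 CPM in WT and at 437 and 256 CPM in the Trim24-deficient labelled libraries, and the Y-linked Ddx3y at 73.6 and 102 CPM against 0.426 and 0.411 CPM. The study's methods describe the mice as matched for sex, which these levels go against. Genotype and sex therefore cannot be told apart in any difference given here. The genes of the sort were abundant in all libraries (Adgre1, which encodes F4/80, at 326 to 374 FPKM, a level scaled to transcript length and library size), and the 12 macrophage genes (the top ones C1qb, C1qc and Lyz2) summed to 21160 to 26890 CPM. No gene of the 10 was called, where a call asked for an FDR (p adjusted by Benjamini-Hochberg over all genes in the quasi-likelihood test of edgeR) under 0.05 together with more than a 1.5-fold difference. By this rule 0.372% of the 11302 genes tested were called, 0.292% as higher and 0.0796% as lower in the Trim24-deficient labelled libraries. The 10 genes include 1, Zbtb46, that fell below the low-count filter and was tested only in a fit without that filter.

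The DC genes spanned a wide range of levels. On the length-scaled FPKM level, Irf8 was the highest in every library (109 to 172 FPKM), which placed it between rank 552 and rank 832 of 16739 genes. Batf3 followed at 22.02 to 36.96 FPKM and did not overlap with its neighbours in this order. Below these came Ccr7 (4.06 to 8.30 FPKM), Xcr1 (2.77 to 9.84 FPKM), Cd209a (2.06 to 8.47 FPKM), Kmo (1.41 to 3.62 FPKM) and Fscn1 (1.29 to 3.31 FPKM). Clec9a (0.33 to 4.37 FPKM), Flt3 (0.05 to 1.57 FPKM) and Zbtb46 (0.38 to 1 FPKM) closed the order. From Ccr7 downwards each gene's range over the libraries overlapped with that of the next. Flt3 and Zbtb46, markers of conventional DCs as a whole, thus sat at the bottom of the list, and Kmo, the remaining such marker, nearer its middle. The transcription factors Irf8 and Batf3 were at its top.

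**Figure D1:**
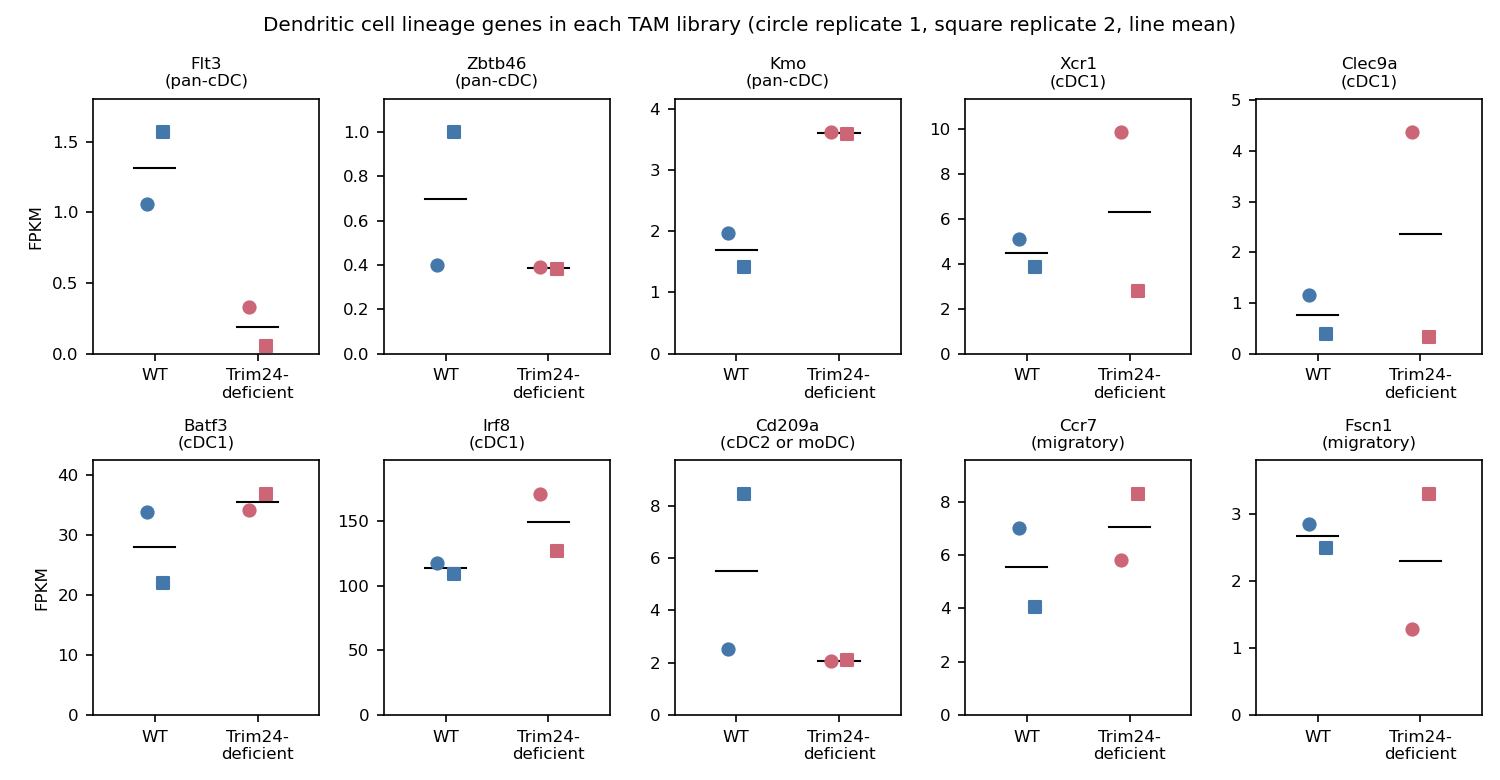
FPKM (vertical axis, from 0) of each of the 10 genes in the WT and Trim24-deficient labelled libraries, with circles for replicate 1, squares for replicate 2 and a line at the group mean. Flt3 and Kmo part the groups in opposite directions, whereas Xcr1 and Clec9a are highest in Trim24-deficient labelled replicate 1 and low in replicate 2.

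The DNA before the start sites of 4 of these genes is shown, since Flt3 and Kmo were the conventional DC genes that parted the groups in opposite directions, and Xcr1 and Clec9a were high in the same library. The sequences are the 250 bases before the annotated start, 5′ to 3′ on the gene's strand, from RefSeq on GRCm38.p6, at chr9:123862030-123862279 (minus strand), chr6:129408612-129408861 (plus), chr5:147400490-147400739 (minus) and chr1:175631943-175632192 (plus). Capitals mark the ETS-type motif GAGGAAGT, a form bound by PU.1, the macrophage and DC regulator.
Xcr1: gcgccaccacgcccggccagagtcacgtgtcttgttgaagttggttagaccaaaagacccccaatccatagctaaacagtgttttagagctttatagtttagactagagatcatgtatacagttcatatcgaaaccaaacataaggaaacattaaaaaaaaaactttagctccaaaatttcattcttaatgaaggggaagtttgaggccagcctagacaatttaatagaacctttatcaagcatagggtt
Clec9a: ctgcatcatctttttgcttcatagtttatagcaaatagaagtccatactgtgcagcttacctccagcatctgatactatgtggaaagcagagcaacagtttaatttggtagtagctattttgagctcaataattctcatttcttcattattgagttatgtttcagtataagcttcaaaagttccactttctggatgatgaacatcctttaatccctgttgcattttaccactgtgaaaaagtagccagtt
Flt3: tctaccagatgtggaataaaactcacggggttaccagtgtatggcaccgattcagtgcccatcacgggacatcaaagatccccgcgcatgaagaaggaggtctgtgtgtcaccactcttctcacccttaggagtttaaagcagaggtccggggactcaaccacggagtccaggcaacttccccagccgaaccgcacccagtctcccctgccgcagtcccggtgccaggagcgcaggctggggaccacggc
Kmo: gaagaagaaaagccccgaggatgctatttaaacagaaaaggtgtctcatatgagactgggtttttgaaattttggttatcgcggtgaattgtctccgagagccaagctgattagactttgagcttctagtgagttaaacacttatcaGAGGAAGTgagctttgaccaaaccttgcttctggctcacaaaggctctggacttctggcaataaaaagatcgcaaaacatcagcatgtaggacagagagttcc
Irf8 and Batf3 bind DNA together at composites of an AP-1 and an IRF motif. Both strands were searched for AP-1 (TGANTCA), for the composites in which GAAA directly precedes AP-1 or in which TTTC, 4 free bases and AP-1 follow each other (both contain the AP-1 letters), for an IRF pair of GAAA, 2 free bases and GAAA, and for an ETS-IRF form of GGAA, 2 free bases and GAAA. None of these occurred in the 4 windows. Of all 32851 promoter windows of the same length, 6.75% held AP-1, 0.1% the first composite, 0.0974% the other composite, 2.98% the IRF pair, 2.3% the ETS-IRF form and 2.44% GAGGAAGT. Of the 9 members with a window in the table, Zbtb46 held AP-1 and the first composite in the window before a start inside the gene, Kmo held the ETS-type motif, and the others held none of the motifs. The windows also differed in base composition, with 35.6% G and C before Clec9a, 38.8% before Xcr1, 42.8% before Kmo and 59.2% before Flt3, against a median of 52.4% over all windows, and with 76% before Batf3.

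Among the markers of conventional DCs as a whole, Flt3 was lower and Kmo higher in the Trim24-deficient labelled libraries, and Zbtb46 overlapped. Flt3 (Entrez gene 14255), the receptor tyrosine kinase for Flt3 ligand that DC precursors require, spans chromosome 5 bases 147330741 to 147400489 (minus strand, 24 exons by the longest GENCODE basic transcript, GRCm38). Its expected counts were 19 and 26 in WT and 6 and 1 in the Trim24-deficient labelled libraries, which gave 3.84, 5.42, 1.28 and 0.206 CPM. The groups did not overlap, and the 95% counting intervals (exact Poisson, counting error only) of 2.31 to 5.99 CPM in WT replicate 1 and 0.469 to 2.78 CPM in Trim24-deficient labelled replicate 1 did. The log2 fold change was -2.61 (standard error 0.73), the largest in size among the 10 genes, with an unadjusted p of 0.00565 and an FDR of 0.207 in edgeR. Without Trim24-deficient labelled replicate 1 it was -4.32 (edgeR FDR 0.0407, in a fit that called 3.46% of its genes and assumed that the lone library varies like the WT libraries). The other leave-out fits made no call of Flt3, with -1.83 (FDR 0.26) without replicate 2 of that label, -2.82 (FDR 0.338) without WT replicate 1 and -2.34 (FDR 0.999) without WT replicate 2, all from edgeR. In bulk samples, fewer cells of a type and less RNA per cell cannot be told apart.

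The ligand of this receptor, Flt3lg, was at 9.69 and 6.04 CPM in WT and at 6.18 and 10.3 CPM in the Trim24-deficient labelled libraries, with overlapping groups (log2 fold change 0.06, standard error 0.41). Zbtb46 (Entrez gene 72147), the zinc finger factor that marks conventional DCs and their precursors, spans chromosome 2 bases 181371009 to 181493262 (minus strand, 5 exons). Its counts were 5 and 11 in WT and 5 and 5 in the Trim24-deficient labelled libraries, a log2 fold change of -0.63 (standard error 0.83, edgeR FDR 0.795 without the low-count filter). No difference in Zbtb46 was detected at these counts.

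Kmo (Entrez gene 98256), kynurenine 3-monooxygenase, turns the tryptophan breakdown product kynurenine into 3-hydroxykynurenine and spans chromosome 1 bases 175632193 to 175660853 (plus strand, 14 exons). It had 24 and 16 expected counts in WT and 45 and 47 in the Trim24-deficient labelled libraries. The corresponding 4.85, 3.33, 9.59 and 9.66 CPM did not overlap, and the latter pair was nearly equal (9.62 ± 0.051 CPM against 4.09 ± 1.07 CPM in WT, SD, n = 2 each). The log2 fold change was 1.23 (standard error 0.39), with an unadjusted p of 0.0115 and an FDR of 0.25 in edgeR. It stayed above 0 in every fit that left out 1 library, between 0.99 and 1.54. Other enzymes of the kynurenine pathway were sparse. Of the 10 listed, 4 were tested, 0 were called, 3 were above 0 on the log2 fold change scale, with a median of 0.30. Kynu, kynureninase, which cleaves the product of Kmo, fell below the low-count filter, with 2.19 and 4.03 expected counts in WT and 5.85 and 11.46 in the others. Haao, which acts a step later, was at 4.24 and 2.29 CPM in WT and at 6.60 and 4.93 CPM in the others (log2 fold change 0.81, standard error 0.49). Afmid, the formamidase that yields kynurenine, was lower (9.29 and 8.75 CPM in WT, 4.47 and 6.78 CPM in the others, log2 fold change -0.68), and Kyat3, a kynurenine aminotransferase, overlapped (0.24). Ido1, which starts the pathway, had at most 6 counts in any library.

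None of the 4 cDC1 genes was called. The groups were apart for the transcription factors Irf8 and Batf3, with higher values in the Trim24-deficient labelled libraries, and overlapped for the surface receptors Xcr1 and Clec9a, which were high in 1 library of that label. Irf8 (Entrez gene 15900), which directs cDC1 development and is also needed by monocytes and macrophages, spans chromosome 8 bases 120736358 to 120756694 (plus strand, 9 exons). It was at 330 and 294 CPM in WT and at 517 and 388 CPM in the Trim24-deficient labelled libraries. The groups did not overlap, with a log2 fold change of 0.54 (standard error 0.22), an unadjusted p of 0.0352 and an FDR of 0.367 in edgeR. Batf3 (Entrez gene 381319), the AP-1 family partner of Irf8 in cDC1s, spans chromosome 1 bases 191098414 to 191108943 (plus strand, 3 exons). It was at 22.8 and 14.2 CPM in WT and at 24.7 and 27.1 CPM in the others, groups that were apart by less than the WT libraries were from each other (log2 fold change 0.49, standard error 0.28, edgeR FDR 0.506). The log2 fold change of Batf3 was 0.18 without WT replicate 2. Its relatives in the AP-1 family had values of the same order, with Batf at 37.5 to 53.0 CPM and Batf2, an interferon-induced relative, at 49.9 and 24.4 CPM in WT and at 79.7 and 55.7 CPM in the others (log2 fold change 0.86, standard error 0.32, edgeR FDR 0.323).

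Clec9a (Entrez gene 232414) encodes a C-type lectin by which cDC1s bind the exposed actin filaments of dead cells, and it spans chromosome 6 bases 129408862 to 129424764 (plus strand, 7 exons). It had 18 and 5 expected counts in WT and 68 and 5 in the Trim24-deficient labelled libraries, that is 3.63, 1.04, 14.5 and 1.03 CPM. The counting interval of the highest library, 11.2 to 18.4 CPM, was apart from those of the others, which reached up to 5.74 CPM. Xcr1 (Entrez gene 23832), the receptor for the chemokine Xcl1, spans chromosome 9 bases 123852315 to 123862029 (minus strand, 2 exons). It was at 22.3 and 16.2 CPM in WT and at 46.5 and 13.3 CPM in the Trim24-deficient labelled libraries. The same library was thus the highest for both genes, its fellow replicate was at the bottom (level with WT replicate 2 for Clec9a at 5 counts each), and the groups overlapped.

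The log2 fold change was 1.71 for Clec9a (standard error 0.97, FDR 0.506) and 0.62 for Xcr1 (standard error 0.47, FDR 0.627, both from edgeR), within the spread between replicates. Both turned negative without Trim24-deficient labelled replicate 1, to -1.17 for Clec9a and -0.53 for Xcr1. Without replicate 2 of that label they were 2.61 (FDR 0.00266) and 1.26 (FDR 0.0013, edgeR on 3 libraries, which called 5.54% of its genes). The ratio of Xcr1 to Clec9a on the FPKM level was not constant, at 4.43 and 10.1 in WT and 2.25 and 8.39 in the others. Xcr1 was also the only gene of the 10 whose expected counts were not whole numbers (such as 110.51 in WT replicate 1), which the quantification can give where it divides reads between genes.

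Most T and NK cell markers were highest in the same library as these receptors, whereas B cell markers did not stand out there. The summed level of 5 T cell genes was 55.5 and 46.1 CPM in WT and 112 and 35.6 CPM in the Trim24-deficient labelled libraries, and that of 4 NK cell genes was 44.1, 24.4, 120 and 41.6 CPM in the same order. Cd4 of the T cell list was instead highest in WT replicate 2 (4.44 and 11.3 CPM in WT, 5.96 and 4.73 CPM in the others). The sum of 4 B cell genes was nearly level, at 55.3 and 46.3 CPM in WT and 55.4 and 51.6 CPM in the others. No T or NK cell marker with a value was at 0, and the sixth T cell gene, Trac, had no value in the files. Xcl1, the ligand of Xcr1, which NK and CD8 T cells secrete, was at 3.43 and 2.08 CPM in WT and at 13.6 and 0.822 CPM in the others. Xcl1, Xcr1, Clec9a and both summed lists were each highest in Trim24-deficient labelled replicate 1. The part of T or NK cell RNA in the values of Xcr1 and Clec9a was not tested.

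**Figure D2:**
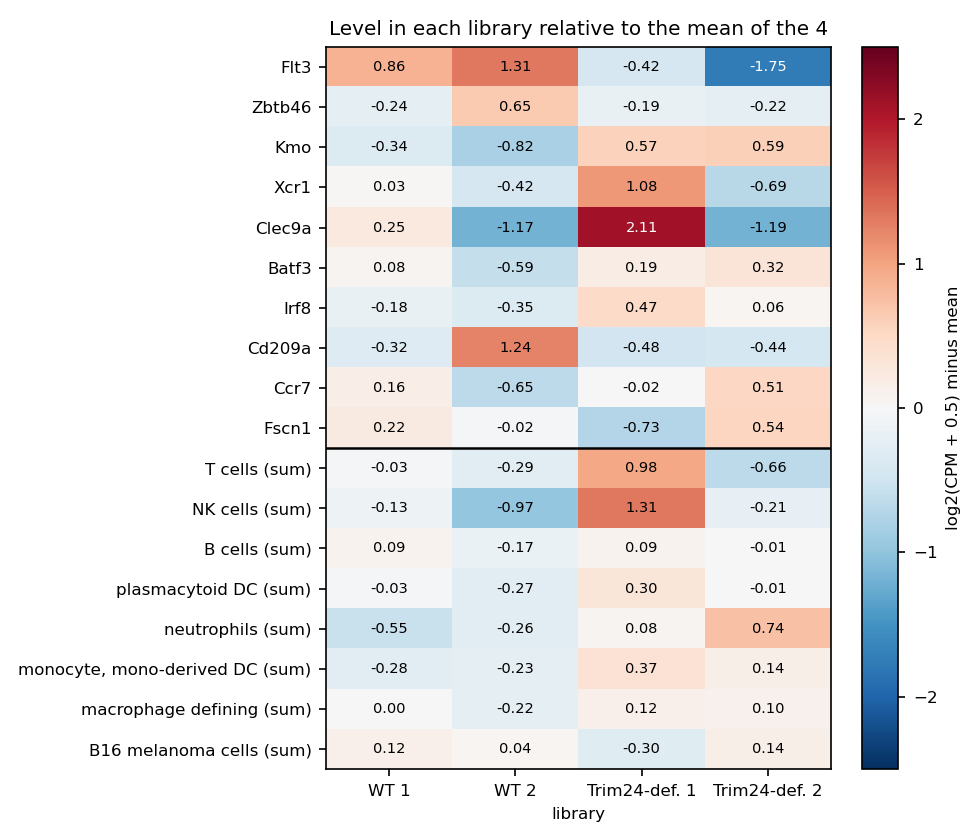
Level of each of the 10 genes, and below the line the summed level of marker lists of other cell types, in each library as log2(CPM + 0.5) minus the mean over the 4 libraries (colour and printed value). Trim24-deficient labelled replicate 1 stands out for Clec9a (2.11), Xcr1 (1.08), NK cells (1.31) and T cells (0.98), and WT replicate 2 for Cd209a (1.24), whereas Flt3 is high in both WT libraries (0.86 and 1.31) and lowest in Trim24-deficient labelled replicate 2 (-1.75).

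Further genes used to recognise cDC1s had log2 fold changes close to 0. Of 10 listed, 8 were tested and 0 were called, 5 of the 8 were above 0 on the log2 fold change scale, with a median of 0.09 against -0.0059 over all genes tested. Several are abundant in macrophages, such as Id2 at 151 to 217 FPKM and Rab7b at 74.2 to 94.0 FPKM. Cadm1, an adhesion molecule of cDC1s, was at 181 and 187 CPM in WT and at 204 and 171 CPM in the others. Itgae, the integrin CD103 of tissue cDC1s, had 4 to 5 counts per library. Naaa, a lysosomal hydrolase, had the highest log2 fold change of the list (0.93, standard error 0.32, edgeR FDR 0.279), at 342 and 180 CPM in WT and 599 and 398 CPM in the others.

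Cd209a, the marker of cDC2s and monocyte-derived DCs among the 10 genes, was high in 1 WT library. Cd209a (Entrez gene 170786), a mouse homologue of the C-type lectin DC-SIGN, spans chromosome 8 bases 3743395 to 3748984 (minus strand, 7 exons). It had 18 and 56 expected counts in WT and 15 and 16 in the Trim24-deficient labelled libraries, or 3.63, 11.7, 3.20 and 3.29 CPM. The groups did not overlap only by the narrow gap between WT replicate 1 and the other label, whose counting intervals of 1.79 to 5.34 CPM enclosed it. The log2 fold change was -1.23 (standard error 0.58, edgeR FDR 0.422) and shrank to -0.16 without WT replicate 2. Siglech, a marker of plasmacytoid DCs named after its values were seen, was high in the same library, with 3 and 21.92 counts in WT and 3.17 and 3.01 counts in the others. The sum of the 10 listed plasmacytoid DC genes was lowest in WT replicate 2, at 846 and 716 CPM in WT and 1060 and 857 CPM in the others. Most of this sum came from Bst2 and Lair1, both also transcribed by macrophages (309 CPM each in WT replicate 2). Tcf4, a plasmacytoid DC transcription factor, was highest in WT replicate 2. It was at 63.2 and 83.7 CPM in WT and 43.4 and 53.1 CPM in the others. Pacsin1 and Runx2, the remaining tested genes of the list, were highest in Trim24-deficient labelled replicate 1. Whether the RNA of other DCs bears on the Cd209a level of WT replicate 2 was not tested. Of the 6 Cd209 paralogs, 1 passed the filter, Cd209c, at 14.3 and 25.9 CPM in WT and 22.4 and 12.1 CPM in the others. Expected counts of Cd209c were not whole (70.75 and 124.43 in WT), which the quantification can give where it divides reads between genes. Those of Cd209a were whole in every library.

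Further genes of cDC2s were divided in sign, and most genes of monocytes had positive log2 fold changes. Mgl2, a macrophage galactose lectin of cDC2s and macrophages, was at 17.6 and 17.1 CPM in WT and at 26.8 and 45.6 CPM in the Trim24-deficient labelled libraries (log2 fold change 1.06, standard error 0.28, edgeR FDR 0.19). Of the 12 further cDC2 genes 8 were tested and 0 called, 5 with a log2 fold change above 0 and 3 below 0, with a median of 0.30. The lowest was Klf4, a zinc finger factor, at -0.47, with overlapping groups. Tnip3, an inhibitor of NF-kB signalling, had a log2 fold change of 0.79 and Notch2, the Notch receptor that cDC2s need, of 0.27, both with groups apart, whereas Clec10a, the paralog of Mgl2, overlapped (0.58) and Sirpa, the receptor for CD47, was at 1126 to 1286 CPM. Irf4, the transcription factor of cDC2s, had 12 to 25 counts per library with overlapping groups. All 12 genes of monocytes and monocyte-derived DCs were tested, and 11 of them had a log2 fold change above 0, with a median of 0.82. Ccr2, the receptor that brings monocytes into tissue, had a log2 fold change of 0.74, Chil3, a secreted chitinase-like protein, of 1.08, and the macrophage genes Fcgr1 and Itgam on this list of 0.54 and 0.65, all with groups apart. Csf1r, the macrophage growth factor receptor, was at 0.13. Its groups were apart on the CPM level only by a gap lost in rounding (1316 and 1383 CPM in WT, 1383 and 1573 CPM in the others). On the FPKM level they overlapped (345 and 378 FPKM in WT, 337 and 377 FPKM in the others). Plac8 and Ly6c2, both high in inflammatory monocytes, had log2 fold changes of 1.70 (FDR 0.0625) and 1.31 (FDR 0.152), and Cx3cr1, the fractalkine receptor, of -0.96 (FDR 0.199, all from edgeR). Neutrophil genes were also higher in sum in the Trim24-deficient labelled libraries (290 and 458 CPM against 187 and 229 CPM over 8 genes). Of these, 6 were tested, 5 with a log2 fold change above 0 and 1, Cxcr2, below 0 (-0.30). Ly6g, below the low-count filter, had 0 counts in both WT libraries and 9.41 and 4.47 counts in the others. These counts are not whole, which the quantification can give where it divides reads between genes. The part of neutrophil RNA in the levels of the monocyte genes was not tested.

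The markers of migrating DCs overlapped between the labels. Ccr7 (Entrez gene 12775), the receptor that guides mature DCs towards Ccl19 and Ccl21 in the lymph node, spans chromosome 11 bases 99144199 to 99155077 (minus strand, 3 exons). It was at 13.5 and 7.50 CPM in WT and at 11.9 and 17.5 CPM in the Trim24-deficient labelled libraries (log2 fold change 0.48, standard error 0.37, edgeR FDR 0.63). Fscn1 (Entrez gene 14086), the actin-bundling protein fascin of DC protrusions, spans chromosome 5 bases 142960355 to 142973189 (plus strand, 5 exons). It was at 7.47 and 6.25 CPM in WT and at 3.62 and 9.45 CPM in the others (log2 fold change -0.07, standard error 0.48, edgeR FDR 0.97). Both genes were highest in Trim24-deficient labelled replicate 2, not in replicate 1 where Xcr1 and Clec9a were high, and both overlapped between the groups. The sign of the Fscn1 fold change depended on the libraries used, from -0.92 to 0.47 with each left out in turn. The libraries also held RNA of the melanoma cells, with 5 B16 genes summing to 780 and 736 CPM in WT and 581 and 788 CPM in the others. Tyr, the most abundant of them (375 to 496 CPM), and Pmel overlapped between the groups (log2 fold changes 0.06 and -0.18). Mlana, Dct and Tyrp1 were lower in the Trim24-deficient labelled libraries with groups apart (-0.66, -0.46 and -0.65), as were 23.0% of all genes tested. None of the B16 genes was called. The part of melanoma cell RNA in the Fscn1 level was not tested. Ccl19, a ligand of Ccr7, had 1 count in all libraries together.

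Other genes of mature DCs had a wider spread of values. Of 19 listed, 17 were tested and 0 were called, 13 had a log2 fold change above 0, and the median was 0.67. Their libraries did not overlap for 10 genes in the higher direction and for 1 in the lower direction, where 21.5% and 23.0% of all genes tested did so. Cd40, the costimulatory receptor for T cell help, was at 66.0 and 46.7 CPM in WT and at 151 and 95.6 CPM in the others (log2 fold change 1.13, standard error 0.26, edgeR FDR 0.141). Birc3, an inhibitor of apoptosis, Samsn1, an adaptor protein, and Ccl5, a T cell chemokine, had log2 fold changes of 0.87, 0.68 and 1.12, with groups apart. Among the abundant genes of the list, Cd83 was at 0.32, Tmem123 at -0.03 and Marcksl1 at -0.07 on the same log2 scale. Apol7c, a member of the apolipoprotein L family with close relatives that may share its reads, had 1.1 and 2.63 expected counts in WT and 25.42 and 24.54 in the Trim24-deficient labelled libraries. The fitted log2 fold change of 3.59 (standard error 0.69, edgeR FDR 0.0759) was the largest of the list. The cytokine Il12b was highest in 1 library, with 5 and 3 counts in WT and 1 and 25 counts in the others.

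Genes shared by conventional DCs were also given by their list. Of 12 listed, 7 were tested and 0 were called, and the median log2 fold change was 0.33. Ciita, the master regulator of MHC class II genes, was at 21.0 and 20.0 CPM in WT and at 91.6 and 29.4 CPM in the Trim24-deficient labelled libraries, highest in the library with the most Clec9a counts (log2 fold change 1.56, standard error 0.44, FDR 0.206). H2-DMb2, a chain of the class II peptide editor, had a log2 fold change of 0.90 (FDR 0.28), whereas Ap1s3, an adaptor complex subunit, was at 7.40 and 12.4 CPM in WT and at 5.02 and 2.85 CPM in the others, a log2 fold change of -1.30 (FDR 0.283, all from edgeR). Itgax, which encodes the DC integrin CD11c, was at 17.5 to 38.3 CPM with overlapping groups. The 17 growth factor and transcription regulators of DCs were all tested, with 0 called and a median of 0.17, and Spi1, which encodes PU.1, was at 292 to 366 FPKM and Csf2ra, the GM-CSF receptor chain, at 121 to 165 CPM. Of the 10 genes of plasmacytoid DCs, 5 were tested and 0 called, among them Tcf4, their transcription factor, at 63.2 and 83.7 CPM in WT and 43.4 and 53.1 CPM in the others (log2 fold change -0.60, standard error 0.22, edgeR FDR 0.305). The other abundant genes of that list were Bst2 (0.11) and Lair1 (0.58), both also transcribed by macrophages.

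**Figure D3:**
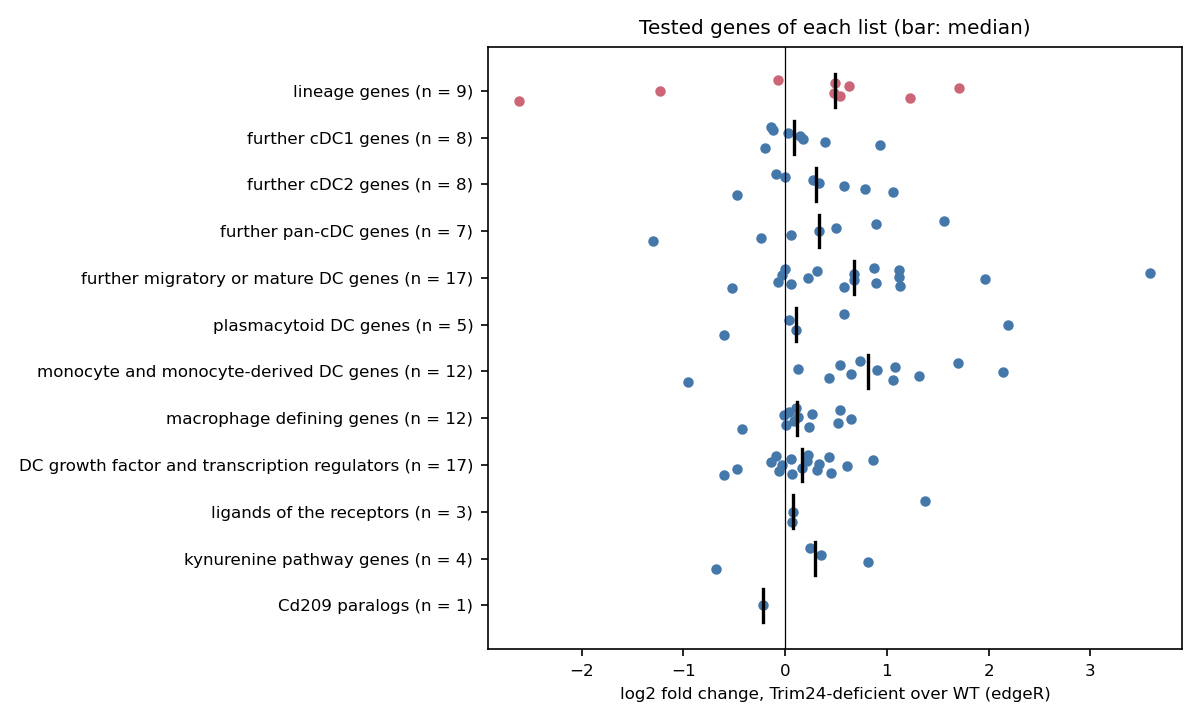
Log2 fold change of the Trim24-deficient labelled libraries over WT (horizontal axis) for the tested genes of each list, 1 point per gene, with a bar at the median. The 9 tested lineage genes run from -2.61 (Flt3) to 1.71 (Clec9a) around a median of 0.49, and the medians of the further lists run from -0.22 for the paralogs of Cd209a to 0.82 for monocyte genes.

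Over the 10 genes as a whole, the classes did not move as one. Of the 9 tested, 6 had a log2 fold change above 0 and 3 below 0, with a median of 0.49 against -0.0059 over all genes tested. Libraries of the 2 labels did not overlap for 3 of the 10 in the higher direction (Kmo, Batf3 and Irf8) and 2 in the lower direction (Flt3 and Cd209a), as for 44.5% of all genes tested. A p under 0.05 before adjustment was reached in edgeR by 3 of the 9, Kmo and Irf8 in the higher direction (6.58% of all genes tested) and Flt3 in the lower direction (5.62%), against 12.2% in either direction. DESeq2 called 0 of them (1.38% of all genes tested), and limma called 0 on log2(FPKM + 1) and on log2(FPKM + 0.1) (0.207% and 0.18%). On log2(FPKM + 1), which understates the differences of low genes, the values were -0.96 for Flt3, 0.78 for Kmo, 0.63 for Clec9a and 0.23 for Xcr1. The replicate number as a block called 1, Flt3 (5.61%). With library totals, upper-quartile scaling or the length trend removed 0 were called (0.265% each), with no low-count filter 0 (0.371%), with at least 10 counts in every library 0 (0.334%), and without WT replicate 1 or WT replicate 2 likewise 0 (0.563% and 0.215%). The exact two-sided permutation test of a single gene in 2 against 2 libraries cannot give a p below 0.333. The fold changes of shorter genes tended to be higher over all genes (Spearman's rho -0.249 across 11302 genes, which are not independent replicates), and with that trend removed the log2 fold changes were -2.55 for Flt3, 1.21 for Kmo and 0.38 for Batf3, the shortest at 712 bases.

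**Figure D4:**
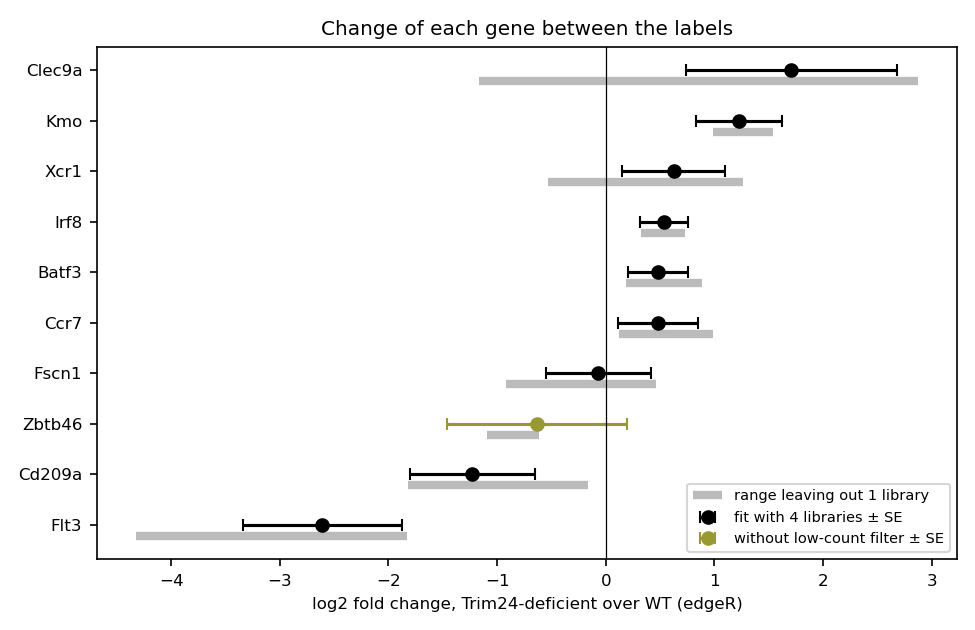
Log2 fold change (horizontal axis) of each of the 10 genes with its standard error from edgeR, above a grey bar that spans the values obtained with 1 library left out. The bars of Clec9a, Xcr1 and Fscn1 cross 0, those of Flt3, Cd209a, Zbtb46, Kmo, Irf8, Batf3 and Ccr7 do not, but the bar of Zbtb46 rests on 3 fits and lacks the one without WT replicate 2, the library with the most Zbtb46 counts (11, against 5 in each other library).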

How the data were processed

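RNA of sorted TAMs was sequenced in 2 WT and 2 Trim24-deficient labelled libraries. Reads had been aligned by the authors with Bowtie (genome GRCm38/mm10), with RSEM for gene levels. They deposited the expected count per gene, not normalized and whole for 77.1% of values, and FPKM, scaled by RSEM to length and library. The deposited length column (another value, in bases) served only to check a length trend. Strand handling is not given in the sources used here, and no exon base of the 10 genes is shared with an overlapping GENCODE M21 gene.

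Expected counts were rounded. A gene missing from a table was set to 0. edgeR 4.0.16 (R 4.3.3) filtered (filterByExpr, 11302 genes), scaled (TMM) and tested by glmQLFit and glmQLFTest with Benjamini-Hochberg adjustment over all genes. Standard errors equal |log2 fold change| over the root of F. Replicates were distinct libraries (chi-square per degree of freedom 8.57 and 19.2), which no source used here ties to single mice. The edgeR p-values measure the spread between 2 libraries per group, moderated towards the spread of other genes (median prior degrees of freedom 7.41). Alternatives used limma 3.58.1, DESeq2 1.42.0, other scalings and filters, a length correction, a replicate block and each library left out. All 10 genes are named, and a gene of a further list if it was called, if its groups were apart at an unadjusted p under 0.05, or if it was among the 3 most abundant. A gene of the monocyte list that this rule would name is not reported here. Some further list members are named for their role or as extremes, after their values were seen. The scripts were tested on simulated data. The members and lists were chosen with earlier results of these data known.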

Additional observations from a re-analysis of the deposited data

How the results depend on the processing

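With all libraries, every alternative kept the direction of the tested genes. The exception in calls was Flt3 with the replicate number as a block (log2 fold change -2.64, edgeR FDR 0.0179). The numbers 1 and 2 are not said to mark a litter or batch, deviations of same-numbered libraries correlated at 0.165 across genes, and the block fit, with 1 residual degree of freedom, took its spread from all genes together. In all 118 refits of single genes, 110 kept side and direction.

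As reported, 42 genes of the series, 0 of the DC lineage genes and 1 of the 114 further genes were called. These counts were 634, 1 and 18 with the replicate block, and 156 and 7 for the series and further genes with DESeq2. limma gave 23 and 0 on log2(FPKM + 1) and 20 and 0 on log2(FPKM + 0.1), and without a low-count filter 2 further genes were called. With 1 library left out the counts ranged from 25 to 652, 0 to 2 and 1 to 22, the highest each without Trim24-deficient labelled replicate 2. The changes then ranged from -4.32 to -1.83 for Flt3, from -0.53 to 1.26 for Xcr1, from -1.17 to 2.87 for Clec9a and from -0.92 to 0.47 for Fscn1. The sign of Xcr1 (-0.53) and Clec9a (-1.17) turned without Trim24-deficient labelled replicate 1 and that of Fscn1 without the same library (0.47) or WT replicate 1 (0.08), in fits where a lone library is assumed to vary like the other group. The cause was not tested. Zbtb46 passed the low-count filter in 3 of the fits with 1 library left out (not without WT replicate 2) and in none with all libraries, and Flt3 and Clec9a none with at least 10 counts in every library. At most 26 counts for Flt3 and 11 for Zbtb46 limit what could be detected.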
